A study of Homo sapiens with 18 samples.

Results

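SOX transcription factors were followed across D425 and D458 cells carrying short hairpin RNAs against EYA2. The 10 genes were SOX1, SOX2, SOX3, SOX4, SOX5, SOX6, SOX8, SOX9, SOX10 and SOX11, taken by name from a table of read counts for 25369 gene symbols. All 10 were in the table, and 5 of them (SOX4, SOX5, SOX6, SOX8 and SOX11) had enough reads to be tested among 14850 genes. D425 and D458 are established lines of Group 3 medulloblastoma, a cerebellar tumour of childhood marked by high MYC and OTX2, and both were derived from the same patient. EYA2 encodes a transcriptional coactivator and phosphatase that works with homeobox proteins of the sine oculis family.

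Each line had 3 groups of 3 biological replicates: a non-targeting control hairpin and 2 hairpins against EYA2, numbered 6 and 8 in D425 and 7 and 8 in D458. Every group, controls included, was transduced with a zsGreen-marked hairpin vector and selected in puromycin (1 µg/mL) for 48 h. The brightest 10% of zsGreen-positive cells were sorted and left to recover for 24 h before poly(A) RNA was taken. Hairpin 8 was thus the only hairpin used in both lines, and each line stands for 1 tumour culture grown in serum. Labels of replicate 1 carried an earlier date than those of replicates 2 and 3 in every group.

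SOX proteins bind DNA through the HMG box, a domain that bends the double helix at short sites such as ACAAAG and ACAATG. The SOXB1 factors (SOX1, SOX2 and SOX3) hold neural cells in the progenitor state, and the SOXC factors (SOX4 and SOX11) act as those cells become neurons. The SOXD factors (SOX5 and SOX6) lack a transactivation domain of their own and work beside other SOX proteins, including SOX9 in cartilage. The SOXE factors (SOX8, SOX9 and SOX10) are known from glia, the neural crest and, for SOX9, cartilage.

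The stretches below show how far the families resemble each other in the part that binds DNA, and so how well reads can be told apart between members. Each is 60 coding bases from the start of the HMG box in GENCODE transcripts on GRCh38, written 5′ to 3′ on the coding strand. Capitals mark bases that differ from SOX4. They are the 5 members that were tested.
SOX4 (chr6:21594715-21594774, plus strand): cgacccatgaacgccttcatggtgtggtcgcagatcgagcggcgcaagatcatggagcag
SOX11 (chr2:5692872-5692931, plus strand): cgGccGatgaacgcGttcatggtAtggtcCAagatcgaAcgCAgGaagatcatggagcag
SOX5 (chr12:23543251-23543310, minus strand): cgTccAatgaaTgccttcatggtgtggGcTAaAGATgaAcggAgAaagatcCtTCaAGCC
SOX6 (chr11:15989037-15989096, minus strand): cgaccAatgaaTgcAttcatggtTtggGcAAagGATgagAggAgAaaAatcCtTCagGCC
SOX8 (chr16:982232-982291, plus strand): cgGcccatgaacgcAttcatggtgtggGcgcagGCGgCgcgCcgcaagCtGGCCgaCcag

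SOX11 matched SOX4 at 50 of 60 bases, SOX8 at 46, and SOX5 and SOX6 at 40 each, while SOX5 and SOX6 matched each other at 51. Over whole transcripts, 1 of the 45 pairs of members, SOX1 with SOX2, shared any run of 50 bases. Exact runs of that length thus told each tested member apart from the other named members. Genes outside the 10, such as SOX12 and SOX13, were not compared, nor were runs with mismatches. The read length is not given in the sources used here. SOX4 and SOX11 have 1 exon, and these stretches lie within 1 exon in all 5 genes.

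The promoters shown next are those of SOX4, SOX5 and SOX6, which rose together in D425. Each is the 250 bases before the most upstream transcription start listed by RefSeq on GRCh38.p14, with the SOX core (ACAAAG or ACAATG, either strand) in capitals.
SOX4 (chr6:21593501-21593750, plus strand): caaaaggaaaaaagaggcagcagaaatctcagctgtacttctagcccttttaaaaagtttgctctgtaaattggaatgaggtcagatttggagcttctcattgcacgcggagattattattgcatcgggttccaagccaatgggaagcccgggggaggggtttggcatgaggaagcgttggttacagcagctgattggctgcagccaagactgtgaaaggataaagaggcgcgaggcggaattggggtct
SOX5 (chr12:24562492-24562741, minus strand): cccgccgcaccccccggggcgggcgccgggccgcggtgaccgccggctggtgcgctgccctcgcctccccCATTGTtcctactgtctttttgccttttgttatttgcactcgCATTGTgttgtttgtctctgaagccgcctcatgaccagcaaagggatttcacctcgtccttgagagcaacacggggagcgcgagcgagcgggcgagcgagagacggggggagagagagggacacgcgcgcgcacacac
SOX6 (chr11:16738478-16738727, minus strand): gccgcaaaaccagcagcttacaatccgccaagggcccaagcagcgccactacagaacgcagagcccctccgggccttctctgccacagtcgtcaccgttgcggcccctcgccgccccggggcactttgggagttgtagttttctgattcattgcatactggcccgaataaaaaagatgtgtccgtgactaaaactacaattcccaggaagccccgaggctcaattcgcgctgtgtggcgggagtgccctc

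SOX5 held 2 SOX cores in this window, and SOX4 and SOX6 held 0. The core was found in 21.2% of 35116 promoter windows of the same length. The GC box (GGGCGG, either strand) was present once in SOX5 and once in SOX6 and in 42.6% of all windows. MEF3 (TCAGGTT, either strand), a site bound by the homeobox partners of EYA2, was found in 2.8% of windows and in 0 of these 3. SOX6 has 5 listed starts, and the window of the fifth, the most downstream, held 3 SOX cores and 1 MEF3 site. The window of SOX4 had 48.8% G and C, against 65.6% for SOX5, 58.8% for SOX6 and a median of 58% over all windows. Windows of SOX8, SOX9, SOX10 and SOX11 were not analysed here.

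Levels below are read counts relative to the TMM-scaled library size (CPM), with the SD over 3 libraries. Changes are log2 fold changes with their standard error from an edgeR quasi-likelihood fit to all 18 libraries. Calls were made where the p, adjusted by Benjamini and Hochberg over the 14850 genes, was under 0.05. Library totals ran from 21260369 to 31552051 counts. The 5 Group 3 markers, mainly MYC and OTX2, summed to 5380 to 6180 CPM in D425 controls, 4450 to 5100 with hairpin 6, 4200 to 4970 with hairpin 8 and 5150 to 6760 in D458, and NPR3 among them was read at most 4 times in any library. WNT markers stayed at or under 0.293 CPM. The 5 SHH markers summed to 21.1 to 37.1 CPM in D425, 50.6 to 96.2 in D458 controls and up to 142 with the D458 hairpins, mostly PDLIM3, while ATOH1 had at most 2 reads per group. In bulk RNA, fewer cells of a type and less RNA per cell cannot be told apart.

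The target was read first. EYA2 stood at 43.6, 24.6 and 15.5 CPM in the D425 controls, at 15.1, 10.7 and 9.72 with hairpin 6, and at 17.5, 12 and 12.7 with hairpin 8. It fell by 1.24 ± 0.274 on the log2 scale with hairpin 6 (adjusted p = 0.0069) and by 0.98 ± 0.270 with hairpin 8 (adjusted p = 0.017). The second call was lost without D425 control replicate 1 (−0.51, adjusted p = 0.0865), or without hairpin 8 replicate 2 (−0.888, 0.0571) or 3 (−0.915, 0.0601), and in a fit to D425 alone (0.0759). In D458, EYA2 stood at 73.7, 67.5 and 69.8 CPM in the controls, 47.5, 51.9 and 45.1 with hairpin 7, and 18.2, 23.5 and 19.3 with hairpin 8. It fell by 1.79 ± 0.271 with hairpin 8 (adjusted p = 5.1e-04), and the change with hairpin 7 was −0.55 ± 0.261 (adjusted p = 0.14). A replicate block, which compares libraries of the same replicate number, called hairpin 7 too (adjusted p = 0.0069).

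In D425, SOX4, SOX5 and SOX6 rose with each EYA2 hairpin, and in D458 SOX4 rose with each. SOX11 was called higher with each D425 hairpin as well, but on a few reads against 0. SOX4 and SOX6 were above the level of the filter in all 18 libraries and SOX5 in all but the D425 controls. SOX11 was above it in D458 libraries alone and SOX8 in 5 D458 libraries, so these 2 were tested in D425 through the other line, and SOX2, with as few reads there, was not. The counts of calls below depend on that and are given as a description.

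Of the 5 tested members, 4 were higher and 0 lower with hairpin 6 of D425, SOX11 included, where 14.1% of all tested genes were called (7.31% higher, 6.84% lower). With hairpin 8 of D425 the count was again 4 higher and 0 lower, SOX11 included, where 21.7% of genes were called (11.6% higher, 10.1% lower). In D458, 1 was higher and 0 lower with hairpin 7 (22.6% of genes called, 11.5% higher and 11.1% lower). The count with hairpin 8 was also 1 higher and 0 lower (23.2% called, 12.1% higher and 11.1% lower). The hairpins of a line share the same 3 control libraries.

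Other ways of calling moved the D458 counts of members, and those of all genes with them. With replicate number as a block within each line, 3 members were called with each D458 hairpin, while calls over all genes came to 40% (20% higher, 20% lower) and 39.6% (19.9% higher, 19.7% lower). In D425 the block called 27.8% of all genes with hairpin 6 (14.5% higher, 13.3% lower) and 37.2% with hairpin 8 (19.5% higher, 17.7% lower). A fit to the D458 libraries alone called 2 members with each hairpin, beside 19.8% and 19.9% of all genes. A minimum count of 50 gave 24.7% and 25.5% of genes with the D458 hairpins. DESeq2 called 17.1% and 24.7% of all genes with the D425 hairpins and 26.1% and 26.6% with those of D458. With all libraries numbered 2, or all numbered 3, left out, the members called with D425 hairpin 6 came to 0 and 0 by edgeR.

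The Group 3 markers moved in D425 beside these rises. Of the 4 tested, 1 was lower with hairpin 6, and 2 were lower and 1 higher with hairpin 8, beside 14.1% and 21.7% of all genes. MYC fell by 0.43 ± 0.0965 (adjusted p = 0.0073) and by 0.55 ± 0.0967 (adjusted p = 9.4e-04). With the D458 hairpins edgeR called 0 and 0 of the Group 3 markers, beside 22.6% and 23.2% of all genes. There were 1 and 1 at an unadjusted p under 0.05, 0 and 0 by DESeq2, and 1 and 1 lower with the block. The block called 40% and 39.6% of all genes there. Of the SHH markers, PDLIM3 was called higher with each D458 hairpin (0.87 and 0.70, adjusted p = 0.017 and 0.042). The part of these markers in the SOX results was not tested.

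**Figure D1:**
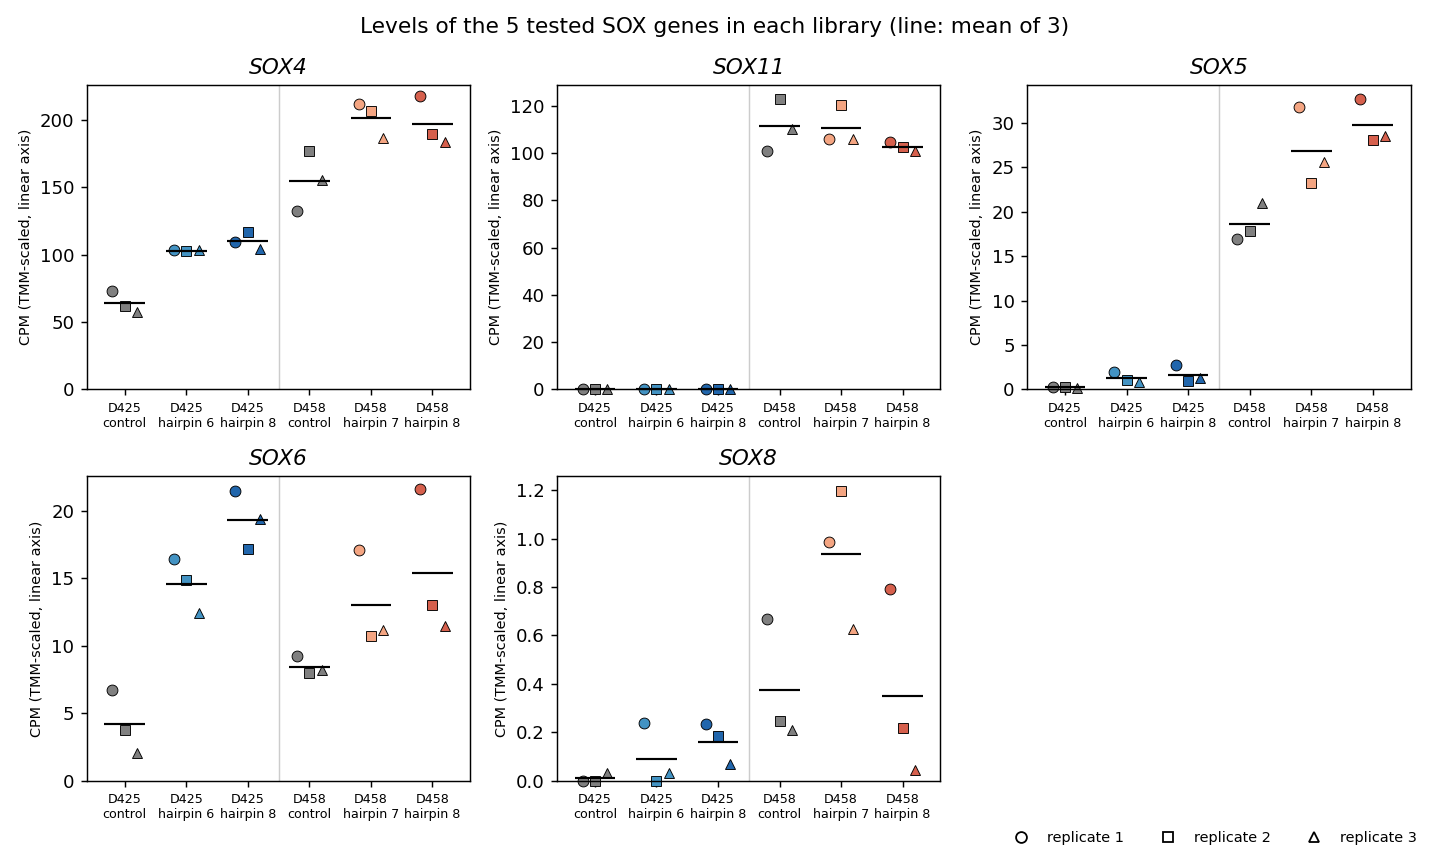
CPM (linear axis, TMM-scaled) of SOX4, SOX11, SOX5, SOX6 and SOX8 in each of the 18 libraries, by group on the x axis. Symbols give the replicate number and lines the mean of 3; SOX4, SOX5 and SOX6 are higher with the hairpins than in the controls of the same line, and SOX11 is near 0 in D425 and at 101 CPM or more in D458.

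SOX4, a SOXC factor of newborn neurons and of many tumours, was the most abundant member. Its CPM was 73.0, 61.6 and 57.5 in the D425 controls, 103, 102 and 103 with hairpin 6, and 109, 117 and 104 with hairpin 8. All 6 hairpin libraries of D425 lay above all 3 controls. The rise was 0.68 ± 0.107 with hairpin 6 (1.61-fold, adjusted p = 7e-04) and 0.78 ± 0.107 with hairpin 8 (1.72-fold, adjusted p = 1.7e-04). The 670 tested genes of chromosome 6, which holds SOX4, had median changes of 0.11 and 0.15 there, whose part was not tested.

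In the D458 controls, SOX4 stood at 132, 177 and 155 CPM, with hairpin 7 at 212, 207 and 186, and with hairpin 8 at 218, 189 and 183. Here too the hairpin libraries lay above the highest control, by a smaller margin. The rise was 0.38 ± 0.106 with hairpin 7 (1.30-fold, adjusted p = 0.018) and 0.35 ± 0.106 with hairpin 8 (1.27-fold, adjusted p = 0.027). These calls depended on single libraries. The hairpin 7 call was lost without D458 control replicate 1 (0.295, adjusted p = 0.0768), control replicate 3 (0.401, 0.0521) or hairpin 7 replicate 1 (0.357, 0.079). The hairpin 8 call was lost without D458 control replicate 1 (0.259, adjusted p = 0.112), control replicate 3 (0.366, 0.0707) or hairpin 8 replicate 1 (0.28, 0.135). Both SOX4 calls were also lost without all libraries of any 1 replicate number. Without those numbered 1, the ones with the earlier date, the changes were 0.244 (adjusted p = 0.0724) and 0.166 (adjusted p = 0.234). Fitted on the D458 libraries alone, the hairpin 8 change had an adjusted p of 0.0612.

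Ordered by level, the groups of SOX4 ran from D425 control through D425 hairpins 6 and 8 to D458 control and then D458 hairpins 8 and 7. The hairpins of D425 differed by 0.10 (95% interval −0.13 to 0.32) and those of D458 by −0.04 (−0.26 to 0.19), neither called. Divided by a RefSeq gene length of 4869 bases, the level of SOX4 ran from 13.2 ± 1.65 CPM per kb in D425 controls to 41.4 ± 2.76 with hairpin 7 in D458 (SD, n = 3).

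SOX11, the other SOXC member, was nearly silent in D425 and abundant in D458. The D425 controls had 0, 0 and 0 reads, hairpin 6 had 4, 5 and 2, and hairpin 8 had 7, 1 and 1. In D458 the counts were 2270, 2508 and 2643 in the controls, 2570, 2513 and 2365 with hairpin 7, and 2788, 2354 and 2371 with hairpin 8. The lines did not overlap. In D458 each hairpin group overlapped the controls in CPM, and the hairpin 8 libraries, at 101 to 105 CPM, lay below those with hairpin 7, at 106 to 120.

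The few SOX11 reads with the D425 hairpins give no fold against controls at 0. Against a floor of 3 reads per library, hairpin 6 was at least 1.32-fold above the controls, and hairpin 8 was under that floor. The edgeR calls (adjusted p = 0.013 and 0.018) were lost without D425 control replicate 3 (0.0523 and 0.0634), and that of hairpin 8 also without hairpin 8 replicate 1 (0.189). In D458, SOX11 was at 111 ± 10.9 CPM in control libraries, at 111 ± 8.45 with hairpin 7 and at 103 ± 2.06 with hairpin 8 (SD, n = 3). Its change was −0.01 (95% interval −0.29 to 0.28) with hairpin 7 and −0.12 (−0.40 to 0.17) with hairpin 8, neither called. Per kilobase of a 9002-base RefSeq gene, SOX11 stood at 12.4 ± 1.21 CPM in D458 controls, below SOX4 at 31.8 ± 4.59 in the same libraries.

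SOX5, a SOXD factor, made the largest rise in D425 of the members with reads in every library. It was at 0.256, 0.224 and 0.191 CPM in the D425 controls, which were 7, 6 and 6 reads. With hairpin 6 it stood at 1.94, 1.09 and 0.835 CPM, and with hairpin 8 at 2.73, 0.951 and 1.29. The lowest hairpin library held 25 reads, above the highest control. The rise was 2.49 ± 0.454 with hairpin 6 (5.63-fold, adjusted p = 0.0019) and 2.88 ± 0.436 with hairpin 8 (7.37-fold, adjusted p = 3.3e-04).

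SOX5 was far higher in D458, at 17, 17.8 and 21 CPM in the controls, 31.8, 23.3 and 25.6 with hairpin 7, and 32.7, 28 and 28.5 with hairpin 8. The hairpin libraries again lay above all 3 controls, but the changes were not called: 0.53 ± 0.254 with hairpin 7 (adjusted p = 0.14) and 0.68 ± 0.254 with hairpin 8 (adjusted p = 0.063). Both were called with the replicate block (adjusted p = 0.0051 and 9.5e-04) and in a fit to the D458 libraries alone (0.0271 and 0.0116). DESeq2 called hairpin 8 (adjusted p = 0.042) and gave 0.11 for hairpin 7.

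SOX6, the SOXD partner of SOX5, stood at 6.69, 3.77 and 2.06 CPM in the D425 controls, 16.4, 14.9 and 12.4 with hairpin 6, and 21.5, 17.1 and 19.4 with hairpin 8. The 3 groups did not overlap. SOX6 rose by 1.81 ± 0.324 with hairpin 6 (3.50-fold, adjusted p = 0.0018) and by 2.22 ± 0.326 with hairpin 8 (4.65-fold, adjusted p = 3e-04). In D458 it was at 9.19, 7.97 and 8.18 CPM in the controls, 17.1, 10.7 and 11.2 with hairpin 7, and 21.6, 13 and 11.4 with hairpin 8. Replicate 1 was the highest library in each D458 hairpin group.

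The D458 changes of SOX6 were 0.62 ± 0.314 with hairpin 7 (adjusted p = 0.16) and 0.86 ± 0.313 with hairpin 8 (adjusted p = 0.056), neither called. With the replicate block both were called (adjusted p = 0.043 and 0.0085). The hairpin 8 change was also called by DESeq2 (adjusted p = 0.025), with D458 libraries alone (0.0405) and at a minimum count of 50 (0.0486). Exons of C11orf58 overlap SOX6 on the opposite strand, and the strand setting of the counting is not given in the sources used here. C11orf58 changed by 0.23 and 0.21 in D425 and by −0.18 and −0.19 in D458, none of them called.

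**Figure D2:**
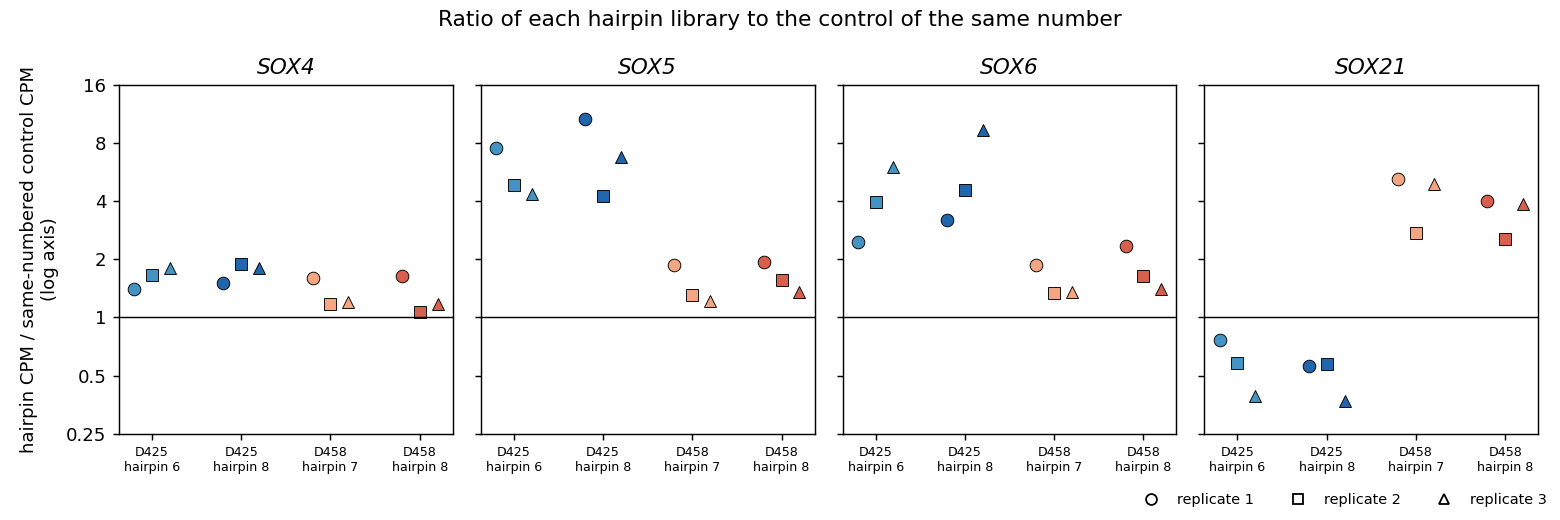
CPM of each hairpin library divided by that of the control with the same replicate number (log axis), for SOX4, SOX5, SOX6 and SOX21 and the 4 hairpin groups. SOX4, SOX5 and SOX6 lie above 1 at every point, and SOX21 lies below 1 in D425 and above 1 in D458.

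Same-numbered libraries gave the same direction throughout for these 3 genes. In D458, the ratio of SOX4 to the same-numbered control was 1.6, 1.17 and 1.2 with hairpin 7 and 1.64, 1.07 and 1.18 with hairpin 8 for replicates 1, 2 and 3. SOX5 gave 1.88, 1.31 and 1.22 with hairpin 7 and 1.93, 1.57 and 1.36 with hairpin 8, and SOX6 gave 1.86, 1.34 and 1.36 and 2.35, 1.64 and 1.40. Replicate 1, the one with the earlier date, had the highest ratio of all 3 genes with each D458 hairpin. In D425, replicate 1 had the lowest ratio of SOX4 and of SOX6 and the highest of SOX5. SOX6 there gave 2.45, 3.95 and 6.02 with hairpin 6 and 3.21, 4.55 and 9.40 with hairpin 8.

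SOX8, a SOXE factor, had the fewest reads of the tested members over the 18 libraries together. Its reads were 0, 0 and 1 in the D425 controls, 6, 0 and 1 with hairpin 6, and 7, 5 and 2 with hairpin 8. In D458 they were 15, 5 and 5 in the controls, 24, 25 and 14 with hairpin 7, and 21, 5 and 1 with hairpin 8. The groups overlapped except for D425 hairpin 8 against its controls and the controls of the lines against each other. No hairpin change of SOX8 was called. With hairpin 7 in D458 the reads summed to 63 against 25, a ratio of 2.5 with a 95% counting interval of 1.55 to 4.15, while the edgeR adjusted p over replicates was 0.21. Counting intervals and floors cover counting error only.

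The other SOXE members were under the filter. SOX10, which directs oligodendrocytes, Schwann cells and melanocytes, had 9, 24 and 11 reads in the D425 controls, 3, 7 and 8 with hairpin 6, and 5, 2 and 6 with hairpin 8. The hairpin libraries lay under all 3 controls. The summed reads gave ratios of 0.433 (95% counting interval 0.235 to 0.764) and 0.292 (0.144 to 0.551). In a fit with no filter, over 21454 genes, edgeR gave adjusted p values of 0.25 and 0.063, neither called. D458 had 0 to 3 reads of SOX10 per library. Exons of POLR2F overlap SOX10 on the opposite strand, and POLR2F changed by 0.03 and −0.07 with the D425 hairpins, not called.

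SOX9, a factor of cartilage and of glial precursors, had 3, 0 and 0 reads in the D425 controls, 1, 1 and 8 with hairpin 6, and 8, 0 and 4 with hairpin 8. In D458 no library held more than 2 reads of SOX9. These groups overlapped in reads, or met at 1 read for hairpin 7 of D458 against its controls and against hairpin 8.

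The SOXB1 genes were close to silent. SOX2, which keeps neural stem cells undifferentiated, had 0 reads in all 3 D425 controls, 5, 3 and 2 with hairpin 6, and 3, 2 and 3 with hairpin 8. Every D425 hairpin library thus had SOX2 reads and no control had, while all 9 D458 libraries had 0. Against the floor, hairpin 6 was at least 1.2-fold higher and hairpin 8 was under it. Without a filter, the adjusted p of edgeR was 0.056 and 0.067 for hairpins 6 and 8, neither called. SOX1 had 0, 1 and 0 reads in the D425 controls, 6, 0 and 1 with hairpin 6, and 5, 1 and 0 with hairpin 8. SOX3 had 0 reads in the D425 controls, 1, 0 and 0 with hairpin 6, and 3, 1 and 0 with hairpin 8. In D458, SOX1 had 1 read in 1 hairpin 7 library, and SOX3 had 0 throughout. SOX1 and SOX2 share 40 runs of 50 bases, so reads from these runs could not be assigned by sequence at that length. How such reads were counted is not stated in the sources used here.

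**Figure D3:**
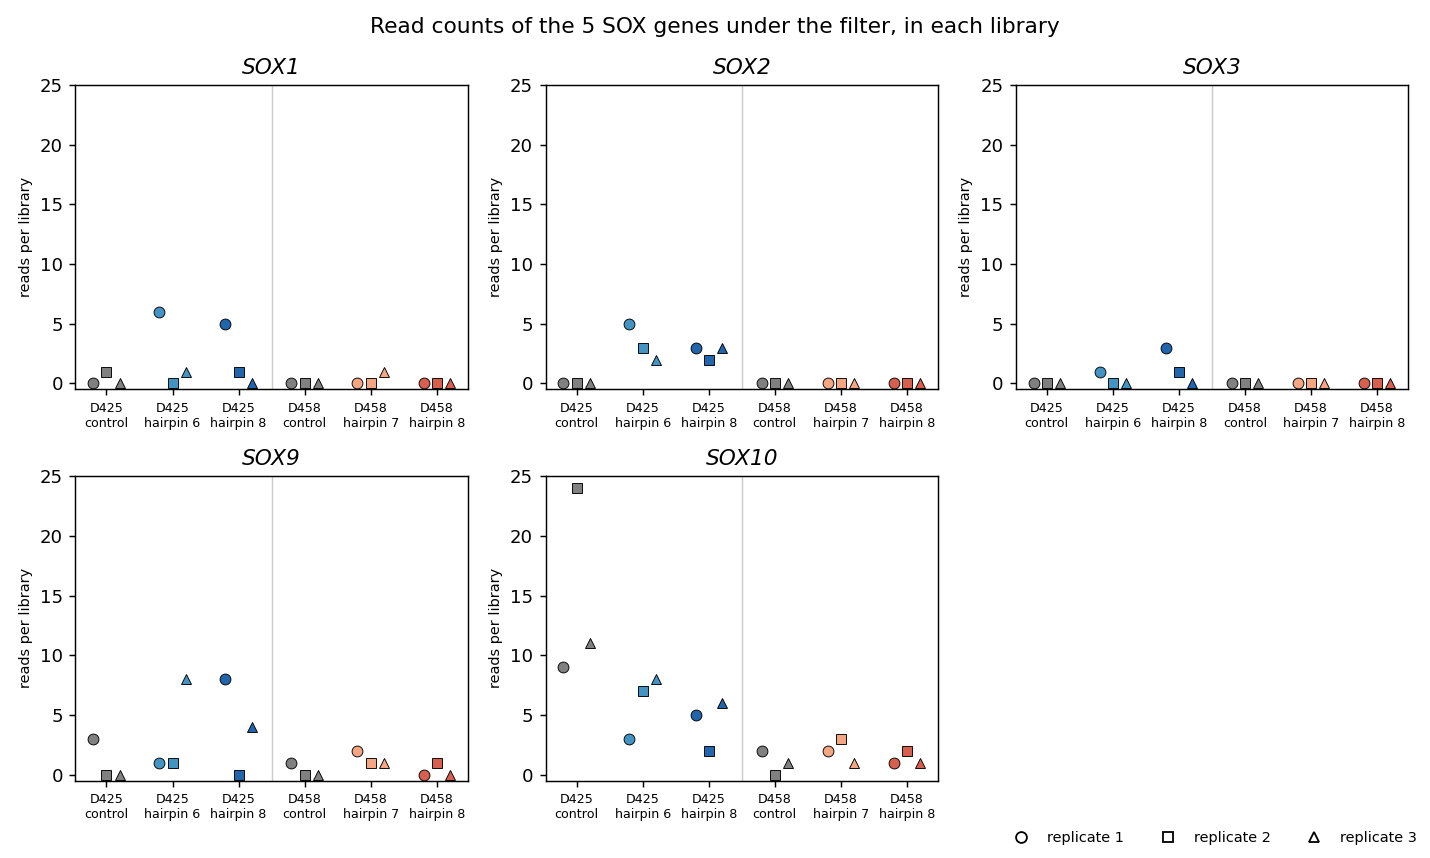
Reads per library (linear axis) of SOX1, SOX2, SOX3, SOX9 and SOX10, the members under the filter, by group. Symbols give the replicate number; SOX2 has reads in every D425 hairpin library and none elsewhere, and SOX10 is highest in the D425 controls, at 9 to 24 reads.

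SOX4, SOX5, SOX6 and SOX11 were higher in D458 controls than in D425 controls. Of the 5 tested members 5 were called higher and 0 lower, where 62.8% of tested genes were called (31.4% higher, 31.4% lower). SOX8 and SOX11 were tested because of their reads in D458, and SOX10, with more reads in D425, was under the filter, so this split is partly set by the filter. SOX11 was at least 1050-fold higher against a floor of 3 reads per library. SOX5 was 82-fold higher (6.36 ± 0.387, adjusted p = 6.7e-10), SOX4 2.42-fold (1.27 ± 0.108, adjusted p = 3e-08) and SOX6 2.03-fold (1.02 ± 0.326, adjusted p = 0.012). SOX8 rested on 25 reads against 1, a ratio of 32 with a counting interval of 5.24 to 1310. The SOX6 call was lost without D425 control replicate 3 (0.691, adjusted p = 0.0543).

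SOX10 went the other way, with 44 reads in D425 controls against 3 in D458 controls, a ratio of 0.0872 (counting interval 0.0173 to 0.272). Its adjusted p was 9.2e-04 in the fit with no filter. Genes that share a chromosome with a member also differed between the lines. The median baseline change was 0.55 over 670 genes of chromosome 6, and −0.40 over 763 genes of chromosome 11, which holds SOX6. It was 0.02 for chromosome 12 (SOX5), 0.11 for chromosome 2 (SOX11) and 0.01 over all genes. The part of these shifts in the values of SOX4 and SOX6 was not tested.

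**Figure D4:**
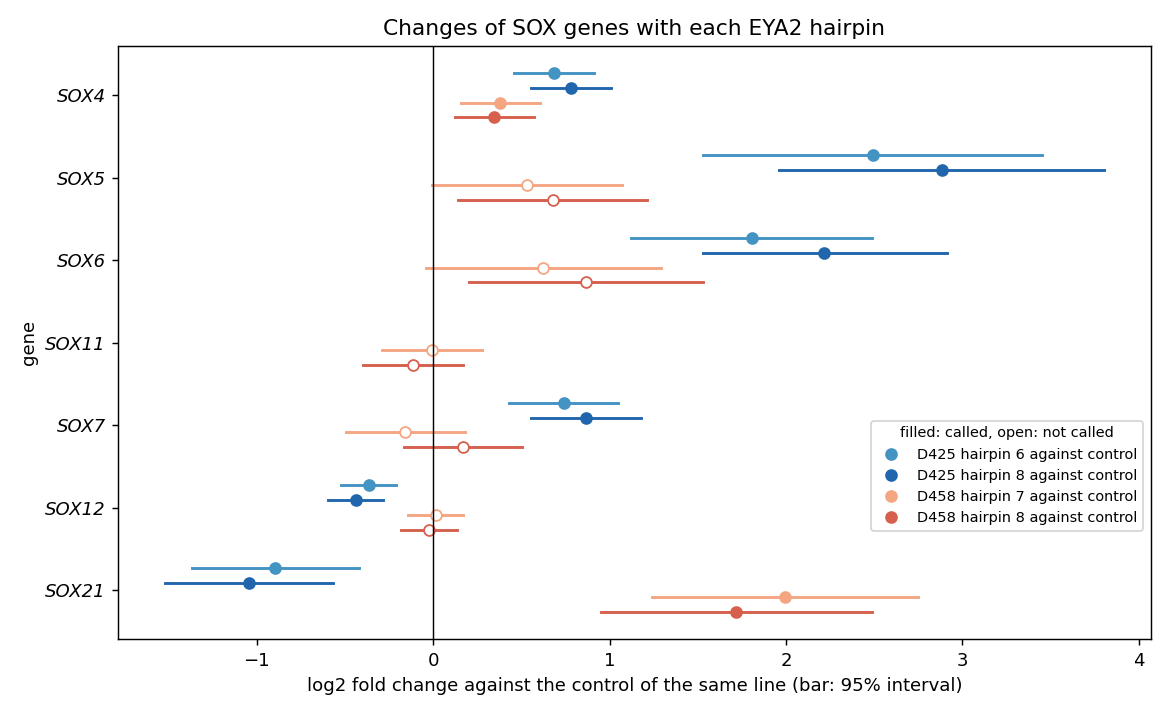
Log2 fold change against the control of the same line (x axis, bars: 95% interval) for SOX4, SOX5, SOX6, SOX11, SOX7, SOX12 and SOX21 with each hairpin; filled points were called and open points were not. SOX11 in D425 is left out because its controls had 0 reads. SOX5 shows the largest rises, with the D425 hairpins, where SOX6 rises as well. SOX21 changes in opposite directions in the lines.

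Hairpin 8 was used in both lines, so its effect could be compared between them in 1 model. The call rule was met by 2 of the 5 tested members, SOX5 and SOX11, where 11.8% of genes differed (6.19% higher, 5.65% lower). The effect on SOX5 was smaller in D458 by −2.20 ± 0.517 on the log2 scale (adjusted p = 0.013), from 2.88 in D425 to 0.68 in D458. For SOX11 the comparison is of 9 reads against 0 in D425 with a level of about 111 CPM in D458, so no difference of folds is given. Its call (adjusted p = 0.027) was lost without D425 control replicate 2 (0.065), control replicate 3 (0.0733) or D425 hairpin 8 replicate 1 (0.212). The differences for SOX6 (−1.35 ± 0.446, adjusted p = 0.059) and SOX4 (−0.43 ± 0.150, adjusted p = 0.069) were not called, but were with the replicate block (adjusted p = 0.0037 and 0.03), where 26.5% of all genes were. The SOX8 difference was not called (adjusted p = 0.2). EYA2 itself changed by −0.98 in D425 and −1.79 in D458 with this hairpin, a difference of −0.81 ± 0.377 (adjusted p = 0.18, and 0.0067 with the block).

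**Figure D5:**
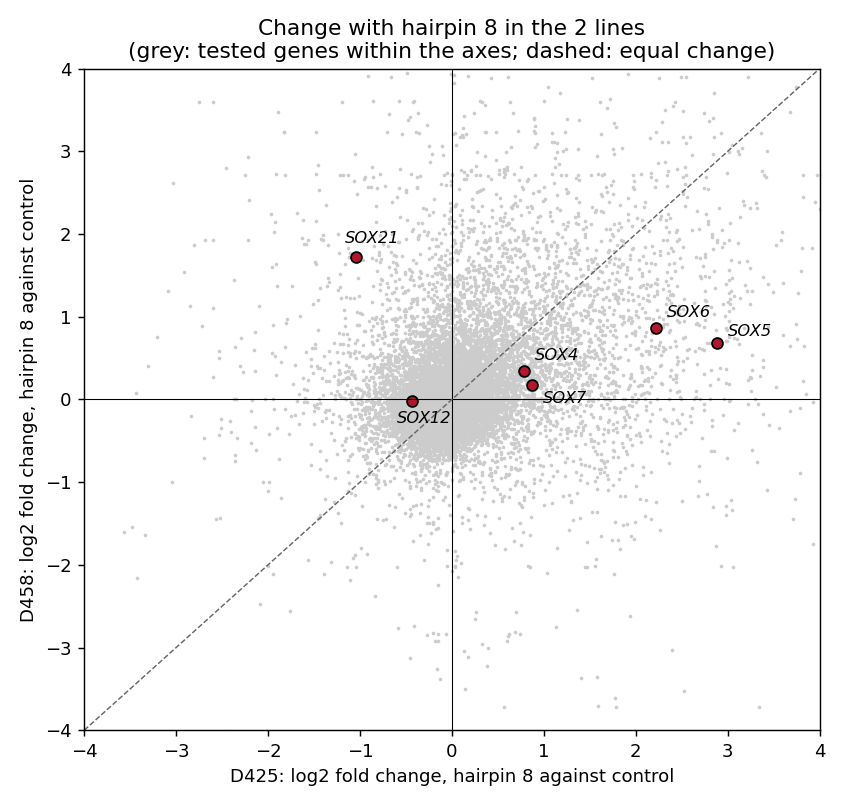
Log2 fold change with hairpin 8 in D425 (x axis) against that in D458 (y axis) for the tested genes within the axes (grey), with SOX4, SOX5, SOX6, SOX7, SOX12 and SOX21 named. SOX5 and SOX6 lie far to the right of the dashed line of equal change, at 2.88 and 2.22 in D425 against 0.68 and 0.86 in D458, and SOX21 lies in the opposite quadrant.

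No member was called between the hairpins of a line. Of the tested members, SOX4 and SOX6 did not overlap in CPM between the D425 hairpins, nor SOX11 between those of D458. How many of all genes did not overlap was not counted, so no difference is read from this. Of the 5, 0 were called between hairpins 8 and 6 of D425, and 0 between hairpins 8 and 7 of D458, where 0% of all genes were called by edgeR in each. At an unadjusted p under 0.05, the members numbered 0 and 0, and all genes 519 and 274. DESeq2 called 0 members and 6 and 4 genes. The interval of the difference was widest for SOX8, −1.36 to 3.06 in D425 and −2.93 to 0.19 in D458. For SOX5 it ran from −0.32 to 1.09 in D425 and −0.39 to 0.68 in D458. EYA2 differed between the D458 hairpins by −1.24 ± 0.269 (adjusted p = 1, and 0.011 with the block).

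A further 9 SOX genes outside the 10 were read for context, and 5 of these were tested. In D425, 2 were called higher (SOX7 and SOX18) and 2 lower (SOX12 and SOX21) with each hairpin, and in D458 1 higher (SOX21) with each, beside 14.1%, 21.7%, 22.6% and 23.2% of all genes called. SOX21, which counters SOXB1 factors in neural progenitors, moved in opposite directions in the lines. It was at 23.6, 40.1 and 47.4 CPM in D425 controls, 18, 23.3 and 18.5 with hairpin 6, and 13.3, 23.1 and 17.6 with hairpin 8. It fell by 0.89 ± 0.224 (adjusted p = 0.013) and 1.04 ± 0.224 (adjusted p = 0.0039). The hairpin 6 call was lost without D425 control replicate 2 (−0.836, adjusted p = 0.0561) or 3 (−0.677, 0.103), and without hairpin 6 replicate 1 (−0.829, 0.0613) or 3 (−0.845, 0.0583), and in a fit to D425 alone (0.0507).

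In D458, SOX21 stood at 0.355, 0.684 and 0.417 CPM in the controls, 1.85, 1.87 and 2.06 with hairpin 7, and 1.43, 1.74 and 1.61 with hairpin 8. The rise of SOX21 was 1.99 ± 0.358 with hairpin 7 (adjusted p = 0.0016) and 1.72 ± 0.364 with hairpin 8 (adjusted p = 0.0041). Its baseline was 76.5-fold lower than in D425 (adjusted p = 7.8e-11). SOX21-AS1, listed separately, rose in D458 as well (0.75 ± 0.235 and 0.92 ± 0.234, adjusted p = 0.032 and 0.011). In D425 its changes were 0.18 and 0.26, not called.

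SOX12, the third SOXC gene, was higher per length than SOX4, SOX11 and SOX21 in every group, at 73.9 ± 6.38 CPM per kb in D425 controls and 70.9 ± 4.86 in D458 controls (SD, n = 3). It fell in D425 by 0.37 ± 0.0744 with hairpin 6 (adjusted p = 0.0037) and 0.44 ± 0.0745 with hairpin 8 (adjusted p = 7.2e-04). The 364 tested genes of chromosome 20, which holds SOX12, had a median change of −0.27 and −0.29 in the same comparisons, against 0.01 and 0.02 over all genes. The part of that shift in the fall of SOX12 was not tested. In D458 the changes of SOX12 were 0.01 and −0.02, not called. SOX7, an endothelial SOXF factor, rose in D425 by 0.74 ± 0.147 with hairpin 6 (adjusted p = 0.0032) and 0.87 ± 0.147 with hairpin 8 (adjusted p = 7.2e-04). SOX7 stood 2.77-fold lower in D458 controls (adjusted p = 4.2e-07). Exons of PINX1 overlap SOX7 on the same strand. PINX1 stood at 42.35 CPM in D425 controls, 44.76 with hairpin 6, 45.01 with hairpin 8 and 44.42 in D458 controls. The part of this overlap in the SOX7 counts was not tested. SOX18, also of the SOXF family, had 3 reads over the D425 controls, 52 with hairpin 6 and 24 with hairpin 8, ratios of 18.3 (counting interval 5.94 to 91.8) and 7.90 (2.40 to 41.0). It passed the filter through 2 libraries of hairpin 6 and 1 of hairpin 8, the groups where it was high, so its calls are not read as a test. SOX18 and SOX13 were named after their values were seen. SOX13, a SOXD gene, had 35 reads in D425 controls and 1 in D458 controls.

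Partners and known targets of the members were read from lists written from general knowledge. Among POU and PAX genes that act with SOXB1 factors, 4 of 6 were tested and edgeR called 0 with any hairpin. Over all genes it called 14.1% and 21.7% with the D425 hairpins and 22.6% and 23.2% with those of D458. With 4 genes, 0 calls are not read as a lack of response. At an unadjusted p under 0.05 there was 1 with hairpin 7 of D458 and 0 with the others, and DESeq2 called 0. The block called 1 lower with each D458 hairpin, where it called 40% and 39.6% of all genes. At baseline 3 were higher and 1 lower in D458, where 62.8% of all genes were called (31.4% higher, 31.4% lower). POU3F1 stood at 0.917 CPM in D425 controls and 38.0 in D458 controls (5.36 ± 0.264, adjusted p = 4.6e-11). POU3F2 stood at 4.41 and 14.3 CPM (1.70 ± 0.382, adjusted p = 0.0011).

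Of 10 neural progenitor genes, 9 were tested. Higher calls numbered 3 and 4 with hairpins 6 and 8 of D425 and 2 and 2 with hairpins 7 and 8 of D458, with 0 lower. Over all genes 14.1%, 21.7%, 22.6% and 23.2% were called, so that the D458 counts, 2 of 9, are near that background. The block gave 5 higher and 1 lower with each D425 hairpin, and 4 and 2 higher with hairpins 7 and 8 of D458. It called 27.8%, 37.2%, 40% and 39.6% of all genes in these comparisons. The median changes of the list were 0.52, 0.51, 0.44 and 0.52, against 0.01, 0.02, 0.01 and 0.01 over all genes. PROM1, which encodes the stem cell surface protein CD133, rose with all 4 hairpins, from 50.5 CPM in D425 controls to 72.5 and 67.8 and from 36.0 in D458 controls to 65.4 and 71.2. Its changes were 0.52 ± 0.0889, 0.43 ± 0.0889, 0.86 ± 0.0904 and 0.98 ± 0.0904 (adjusted p = 0.0011, 0.0032, 2.7e-05 and 5.9e-06).

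GLI2, a transcription factor of Hedgehog signalling, rose in D458 from 0.417 CPM to 6.77 with hairpin 7 (4.01 ± 0.503, adjusted p = 1.4e-04) and 5.09 with hairpin 8 (3.60 ± 0.511, adjusted p = 3.5e-04). In D425, GLI2 was at 41.7 CPM in the controls, and its changes of −0.36 and −0.41 were called with the block alone (adjusted p = 0.014 and 0.0041). The hairpin 8 effect differed between lines by 4.02 ± 0.611 (adjusted p = 9e-04). CDH2, the adhesion protein N-cadherin, rose in D425 by 1.77 ± 0.390 and 1.41 ± 0.388 (adjusted p = 0.0066 and 0.017), the latter lost without D425 control replicate 3 (1.18, adjusted p = 0.091). At baseline 4 of the 9 tested progenitor genes were higher and 3 lower in D458, where 62.8% of all genes were called (31.4% higher, 31.4% lower). NOTCH1 was at 0.831 CPM in D425 controls and 29.4 in D458 controls (5.14 ± 0.340, adjusted p = 2.1e-09).

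Of 4 neuronal genes known as SOXC targets, all 4 were tested, and 1 was higher with each D458 hairpin, near the 22.6% and 23.2% called over all genes. EdgeR called 0 with each D425 hairpin, beside 14.1% and 21.7% of all genes, with 2 and 2 at an unadjusted p under 0.05. There DESeq2 called 1 and 1, beside 17.1% and 24.7% of all genes. The block called 3 and 2 higher in D425 and 3 and 2 in D458, where it called 27.8%, 37.2%, 40% and 39.6% of all genes. DCX, a microtubule protein of migrating neurons, rose in D458 from 1.86 ± 0.471 CPM to 5.53 ± 1.16 with hairpin 7 (1.57 ± 0.461, adjusted p = 0.023) and 5.88 ± 3.45 with hairpin 8 (1.66 ± 0.460, adjusted p = 0.017). Each DCX call was lost without 3 of the 6 libraries in turn: D458 control replicate 2 (1.44, adjusted p = 0.0856, and 1.54, 0.0666), control replicate 3 (1.57, 0.0735, and 1.66, 0.0593) or replicate 1 of the hairpin (1.40, 0.095, and 1.08, 0.124). In D425 its changes were 1.74 and 1.71 (adjusted p = 0.073 and 0.058). At baseline 2 of the 4 were higher and 0 lower in D458, where 62.8% of all genes were called (31.4% higher, 31.4% lower). These were DCX and TEAD2, higher by 3.10 ± 0.587 and 0.63 ± 0.115 (adjusted p = 2.2e-04 and 1.5e-04).

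Of 11 cartilage genes known as targets of SOX9, SOX5 and SOX6, 6 were tested. EdgeR called 0 with each D425 hairpin, beside 14.1% and 21.7% of all genes, with 2 and 2 at an unadjusted p under 0.05. There DESeq2 called 1 and 1, beside 17.1% and 24.7% of all genes. The block called 1 and 1 higher, beside 27.8% and 37.2%. With each D458 hairpin 2 were higher, beside 22.6% and 23.2% of all genes. COL11A1, a fibrillar collagen gene, rose in D458, where its level was 38.2 CPM in controls, 102 after hairpin 7 and 109 after hairpin 8 (1.42 ± 0.209 and 1.52 ± 0.209, adjusted p = 4.2e-04 and 2.7e-04). In D425 COL11A1 was at 124, 133 and 163 CPM in the 3 groups, and its changes of 0.11 and 0.39 were not called. COL9A2 rose in D458 by 1.68 ± 0.313 and 1.51 ± 0.313 (adjusted p = 0.002 and 0.0036). At baseline 1 was higher and 4 lower in D458, where 62.8% of all genes were called (31.4% higher, 31.4% lower). COL9A3 had 5 reads over the D458 controls against 224 over the D425 controls.

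Of 15 genes known as SOX10 targets in glia and melanocytes, 8 were tested. With the D425 hairpins 1 was higher with each and 0 and 1 lower, and in D458 2 and 0 were higher, beside the 14.1%, 21.7%, 22.6% and 23.2% called over all genes. The 2 with hairpin 7 of D458 were MYRF and TYRP1, so that count depends on the filter, as told for TYRP1 below. With hairpin 8 of D458, 2 had an unadjusted p under 0.05 and DESeq2 called 1. The block called 2 higher with each hairpin except hairpin 7 of D458, where it called 3, and 1 lower with each D425 hairpin. It called 27.8% and 37.2% of all genes with the D425 hairpins and 40% and 39.6% with those of D458. DCT, a pigment enzyme, stood at 3.04 CPM in D425 controls, 8.59 with hairpin 6 and 9.79 with hairpin 8, a rise in each (1.5 ± 0.295 and 1.70 ± 0.292, adjusted p = 0.0032 and 8.8e-04), in libraries where SOX10 had at most 8 reads. At baseline 1 of the 8 was higher and 4 lower in D458, where 62.8% of all genes were called (31.4% higher, 31.4% lower). The 1 was DCT, 4.71 ± 0.298 higher in D458 controls on the log2 scale (adjusted p = 1.6e-09). PMEL and MITF, also of this list, stood at 0.835 and 3.13 CPM in D425 controls and 0.107 and 1.81 in D458 controls. MYRF, a myelin regulator, was at 138 CPM in D425 controls, 64.8 with hairpin 6 and 63.4 with hairpin 8, and at 0.603, 2.48 and 1.93 CPM in D458. It fell by 1.12 with hairpin 8 of D425 (adjusted p = 0.046) and rose by 2.06 with hairpin 7 of D458 (adjusted p = 0.048). The first MYRF call was lost without D425 control replicate 2 or 3 or hairpin 8 replicate 1 or 2 (adjusted p up to 0.178) and by DESeq2 (0.143). The second was lost without any D458 control or without hairpin 7 replicate 1 or 2 (adjusted p up to 0.303). TYRP1, also a pigment enzyme, had 3 reads over the D458 controls, 46 with hairpin 7 and 33 with hairpin 8. It passed the filter only through those hairpin groups, where it was high, so its call is not read as a test. CNP, a myelin enzyme, was lower in D458 controls by 1.31 ± 0.0757 on the log2 scale (adjusted p = 3e-10).

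Markers of other cell types moved with the hairpins beside these genes. The 6 fibroblast markers summed to 18.5 to 33.1 CPM in D425 controls, 42.6 to 85.2 with hairpin 6 and 50.9 to 95.6 with hairpin 8. In D458 the sums were 6.89 to 8.44 CPM in the controls, 34.3 to 55.6 with hairpin 7 and 32.2 to 60.9 with hairpin 8. Of the 5 tested, 2 and 2 were higher in D425 and 4 and 4 in D458, with 0 lower. Over all genes 14.1%, 21.7%, 22.6% and 23.2% were called in these comparisons. COL1A2 was at most 14 reads in any library, and COL3A1 had 0 reads in D458 controls. LUM had 1 read over the D425 controls and was above the level of the filter in 1 library of each D425 hairpin. The part of these markers in the rises of the SOX genes was not tested. The melanocyte markers, mostly DCT, summed to 2.6 to 6.62 CPM in D425 controls. With hairpins 6 and 8 of D425 the sums were 6.71 to 11 and 9.77 to 12.3, and in D458 they ran from 76.2 to 97.8. Their part was not tested either. Markers of leukocytes and astrocytes summed to at most 8.47 and 1.27 CPM, and those of endothelial cells and oligodendrocytes to at most 0.535 and 0.512.

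The genes whose levels ran most like a member over the 18 libraries were found for the 3 most abundant members. The libraries share their line, so these coefficients describe mainly the gap between D425 and D458. For SOX4 they were RHOBTB3 (Pearson r = 0.99, Spearman rho = 0.975), F2R (0.985, 0.965) and MAP4K4 (0.979, 0.973). F2R, a thrombin receptor gene, went from 70.7 CPM in D425 controls to 127 and 130 with the hairpins, and from 195 in D458 controls to 310 and 288. For SOX11 they were MARC1 (0.998, 0.932), EYA1 (0.996, 0.835) and PVT1 (0.996, 0.874). EYA1, a paralogue of EYA2, was at 0.0366, 0.14 and 0.158 CPM in D425 and 27.8, 40.0 and 36.2 in D458. For SOX5 they were SRGAP3 (0.993, 0.944), SASH1 (0.992, 0.979) and DIP2C (0.992, 0.971). DIP2C stood at 0.0688, 0.408 and 0.61 CPM in D425 and 11.1, 25 and 23.7 in D458, in the order control, hairpin 6 or 7, hairpin 8.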

How the data were processed

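Poly(A) RNA of 18 libraries was sequenced from stranded TruSeq preparations, per the labels. The authors deposited 1 table of raw read counts per gene symbol; per the submitters' processing notes the tools included TopHat2, Bowtie2, SAMtools, Picard and HTSeq, on GRCh37 (hg19). Their versions, the read length and whether counting used the strand are not stated in the labels.

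Counts were fitted as deposited with edgeR 4.0.16 (R 4.3.3, limma 3.58.1): genes kept by filterByExpr at a minimum count of 10 (14850 of 25369), TMM scaling, robust quasi-likelihood fit with 1 coefficient per group, and Benjamini-Hochberg adjustment over all genes tested. There were 12 residual degrees of freedom. The fit recovered known changes in simulated counts of well-read genes, drawn with the same spread for every gene and no replicate structure. The simulation did not cover members with few reads. Alternatives were DESeq2 1.42.0, other scaling and filters, each line alone, a replicate block and leaving out libraries. Replicate numbers come from the labels. Deviations of same-numbered libraries correlated at 0.084 to 0.61 in D425 and 0.13 to 0.7 in D458 (means 0.3 and 0.35), against means of −0.14 and −0.17 for different numbers. Library totals limit precision at low counts: 0 reads allow up to 3, and 95% intervals cover counting error only.

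Genes named outside the 10 were EYA2, up to 3 called genes per list with the smallest adjusted p over the hairpin comparisons, up to 2 for the controls, and the 3 genes most like each of the 3 most abundant members; SOX13, SOX18, overlapping genes and single markers fell outside this rule. The members and lists were chosen with earlier results of these data known. Sequences came from GENCODE v29 and RefSeq tables on GRCh38, not the build of the counts.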

Additional observations from a re-analysis of the deposited data

Results flagged for a closer look

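The effect of hairpin 8 differed between the lines for 4 SOX genes with reads in every group by the interaction term of the edgeR fit. Over all tested genes 11.8% were called. SOX4, SOX6, SOX8 and SOX13 also had reads in every group and were not called. Differences are given as D458 minus D425 on the log2 scale. SOX5 rose less in D458, by −2.2 (adjusted p = 0.013), and its D458 rise was not itself called. The rise in D425 was against 19 reads over the 3 controls. The call of the difference was lost in 2 of 22 settings (adjusted p up to 0.166).

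SOX21 differed by 2.76 (adjusted p = 8.6e-04): same-numbered ratios to control were 0.563, 0.576 and 0.371 in D425 and 4.02, 2.54 and 3.87 in D458. SOX12 differed by 0.415 (adjusted p = 0.019), which was lost without D425 control replicate 2 (0.344, 0.0582) or D425 hairpin 8 replicate 1 (0.359, 0.0542). The median difference of the 364 genes of chromosome 20, which holds SOX12, was 0.227, against −0.0241 over all genes. SOX7 differed by −0.699 (adjusted p = 0.044), which was lost in 10 of 12 omissions of a single library (−0.875 to −0.55, adjusted p up to 0.126).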

How the results depend on the processing

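With the replicate block, paired by number within each line, the members called rose to 3 with D458 hairpin 7, 3 with D458 hairpin 8 and 4 for the hairpin 8 difference between lines; it changed no other count of members. All-gene calls rose under the block too, from 3357, 3442 and 1758 to 5937, 5888 and 3934. Fitted on D458 libraries alone, the members called numbered 2 with each D458 hairpin, and with hairpin 8 they numbered 2 at a minimum count of 50 and 3 by DESeq2, where 25.5% and 26.6% of all genes were called. Leaving out a library or a replicate number gave 0 to 4 members with D425 hairpin 6, 0 to 1 with D458 hairpin 7, 0 to 2 with D458 hairpin 8, 3 to 5 between controls and 0 to 4 for the hairpin 8 difference. Omissions of a whole replicate number, which left 12 libraries, gave the 0 for D425 hairpin 6 and the 3 between controls.

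Directions reversed only among values that were not called. SOX11 with D458 hairpin 7 was 0.0162 with DESeq2 size factors, 0.0358 without scaling, 0.000419 without a filter, 0.0353 at a minimum count of 50 and 0.0163 by DESeq2, and ran from −0.0583 to 0.0948 with libraries left out. SOX8 with D458 hairpin 8 was 0.00896 without scaling and ran from −1.48 to 0.675. Between hairpins, SOX5 ran from −0.177 to 0.799 and SOX11 from −1.81 to 0.297 in D425, and SOX4 from −0.122 to 0.016 and SOX6 from −0.0975 to 0.503 in D458. The causes were not tested. Counts under 10 per library limit SOX1, SOX2, SOX3, SOX9 and most libraries of SOX10. They also limit SOX5 in D425 controls, SOX11 in all D425 groups, and SOX8 in all D425 groups and in most D458 control and hairpin 8 libraries.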
